A study of Labeotropheus fuelleborni and Maylandia zebra with 12 samples.

Results

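The solute carriers (SLC) are membrane proteins that move ions, sugars, amino acids, metals, vitamins and metabolites across the plasma membrane or the membranes of mitochondria, the Golgi apparatus and vesicles. Their genes were followed here in the replacement teeth and the taste bud epithelium of Lake Malawi cichlids. A gene was taken as an SLC gene when its name began with "slc", a family number, letters and a member number, and slc20a2 was left out. This gave 222 SLC genes of 26490 features in the count table, of which 10619 carried a gene name. Of the 222, 27 had 0 counts throughout, 97 had 1 to 14 counts in all, and 98 had 15 or more counts and are described below. Of these 98, 27 passed the filter for the differential test and 71 were too low for it.

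The study compared replacement teeth with taste bud tissue in Labeotropheus fuelleborni and Metriaclima (Maylandia) zebra. Tooth samples were teeth lifted out of their crypts in the jaw bone after the soft tissue around the jaw had been removed, and taste bud samples were ribbons of lip-side epithelium cut from the lower jaw beside the outer tooth row, per the labels' protocols. The groups were L. fuelleborni tooth, M. zebra tooth, L. fuelleborni taste bud and M. zebra taste bud, each with 3 libraries. The labels give no treatment, mutant allele, sex or age, and do not say whether each library came from a separate animal, so that p-values measure the spread between these libraries, which may be technical.

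An SLC family is named by its number, and members of a family usually share a class of substrate. Families 4, 9 and 26 move bicarbonate, protons and small anions, family 13 takes up citrate or sulfate with sodium, families 2 and 5 carry sugars, families 3, 6, 7 and 38 serve amino acids, and families 30, 31, 39 and 41 move zinc, copper and magnesium. In mammalian teeth, ameloblasts lay down enamel mineral and release protons in doing so, and anion exchangers are known there for handling acid and base. In oral epithelium, amino acid and sugar carriers feed dividing and keratinizing cells, and taste cells load transmitters into vesicles with carriers of families 17 and 18.

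The libraries held 72226 to 300663 counts each. Levels are given as CPM, the count scaled to the library size with TMM factors, and a single count stood for 3.02 to 14.4 CPM. Of the 222 SLC genes, 106 to 149 had a count in a tooth library and 62 to 114 in a taste bud library. SLC genes held 0.747% to 1.06% of the counts of a tooth library and 0.724% to 1.18% of those of a taste bud library. A single unnamed feature, LOC105941146, took 0.0596% to 0.778% of tooth counts and 11.9% to 26.4% of taste bud counts. Of the counts on other features, SLC genes held 0.748% to 1.06% in tooth and 0.822% to 1.504% in taste bud. A fit without LOC105941146 tested 28 SLC genes. It called 7 in favour of tooth, against 31.94% of all genes, and 8 in favour of taste bud, against 20.15%. There slc16a6 and slc5a5 joined those named below. Ribosomal protein genes took 1.40% to 6.50% of counts, most in 3 libraries, which were L. fuelleborni taste bud replicates 1 and 2 and replicate 4 of the L. fuelleborni teeth. How strand was used in counting is unknown here, so reads of an SLC gene cannot be told apart from those of an overlapping antisense gene. In these mixed tissues, fewer cells of a type and less RNA per cell cannot be told apart either.

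The markers of tooth mineral matrix and of oral epithelium followed the labels, while those of taste receptor cells were mixed. The marker lists were chosen with earlier results of these data known, so they are no independent check of the labels. All 7 tested genes of tooth mineral matrix (col1a1, col1a2, sparc, phex, sp7, bgn and alpl) were higher in tooth, against 32.6% of all genes tested. They held 31851 tooth counts and 254 taste bud counts. Markers of oral keratinocytes went the other way, with 7 of 8 past the threshold in favour of taste bud, against 20.2% of all genes tested. Their summed CPM was 296 to 643 in tooth libraries, against 3477 to 4463 in taste bud of L. fuelleborni and 896 to 3143 in taste bud of M. zebra. The endothelial markers cldn5, kdr and tie1 summed to 192 tooth counts and 4 taste bud counts, and those of skeletal muscle to 231 and 143. The part of such cell types in the SLC results was not tested. Of the 7 taste receptor cell genes, 3 were tested. Of these, trpm5 and ddc were higher in taste bud and itpr3 was higher in tooth (105 tooth counts and 12 taste bud counts; log2FC 2.90, SE 0.72, adjusted p = 0.00135). Too low for the test were plcb2, with 32 tooth counts and 2 taste bud counts, calhm1 with 0 and 1, tph1 with 1 and 0, and pkd2l1 with 0 counts in all libraries.

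Tooth and taste bud differed in 13 of the 27 tested SLC genes (48.1%), against 52.8% of all 2962 genes tested. Here and below a gene was called when edgeR's quasi-likelihood test, as the mean of both species, gave a Benjamini-Hochberg adjusted p under 0.05. In tooth 7 were higher, among them slc13a5, slc6a14, slc2a5, slc41a2, slc4a2 and slc25a3. This was 25.9% of the SLC genes, against 32.6% of all genes. In taste bud 6 were higher, namely slc7a5, slc5a10, slc31a2, slc41a3, slc3a1 and slc13a4, or 22.2% against 20.2% of all genes. The median log2 fold change of tooth over taste bud (log2FC) was 0.03 over the 27 SLC genes and 0.21 over all genes tested. The share of SLC genes called lay near the share of all genes.

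The 6 tooth libraries lay all above or all below the 6 taste bud libraries for 8 of the 27 SLC genes (29.6%), against 29.5% of all genes. They lay above for 5 genes (18.5%, against 20.1%), among them slc4a2, slc6a14, slc13a5 and slc41a2, and below for slc3a1, slc5a10 and slc41a3 (11.1%, against 9.42%). With the libraries scaled by DESeq2's size factors, the median of all genes moved to 0.41, the log2FC of the 13 genes kept their signs, and slc3a1 and slc13a4 were no longer called. Without M. zebra taste bud replicate 1 or replicate 2, 37 SLC genes passed the filter and 10 of them were higher in taste bud (18.3% and 18.2% of all genes in these fits), slc5a5, slc16a6, slc17a6 and slc18a2 among the added ones in both fits. In tooth 8 and 10 were higher in these fits, against 31.8% and 30.2% of all genes.

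**Figure D1:**
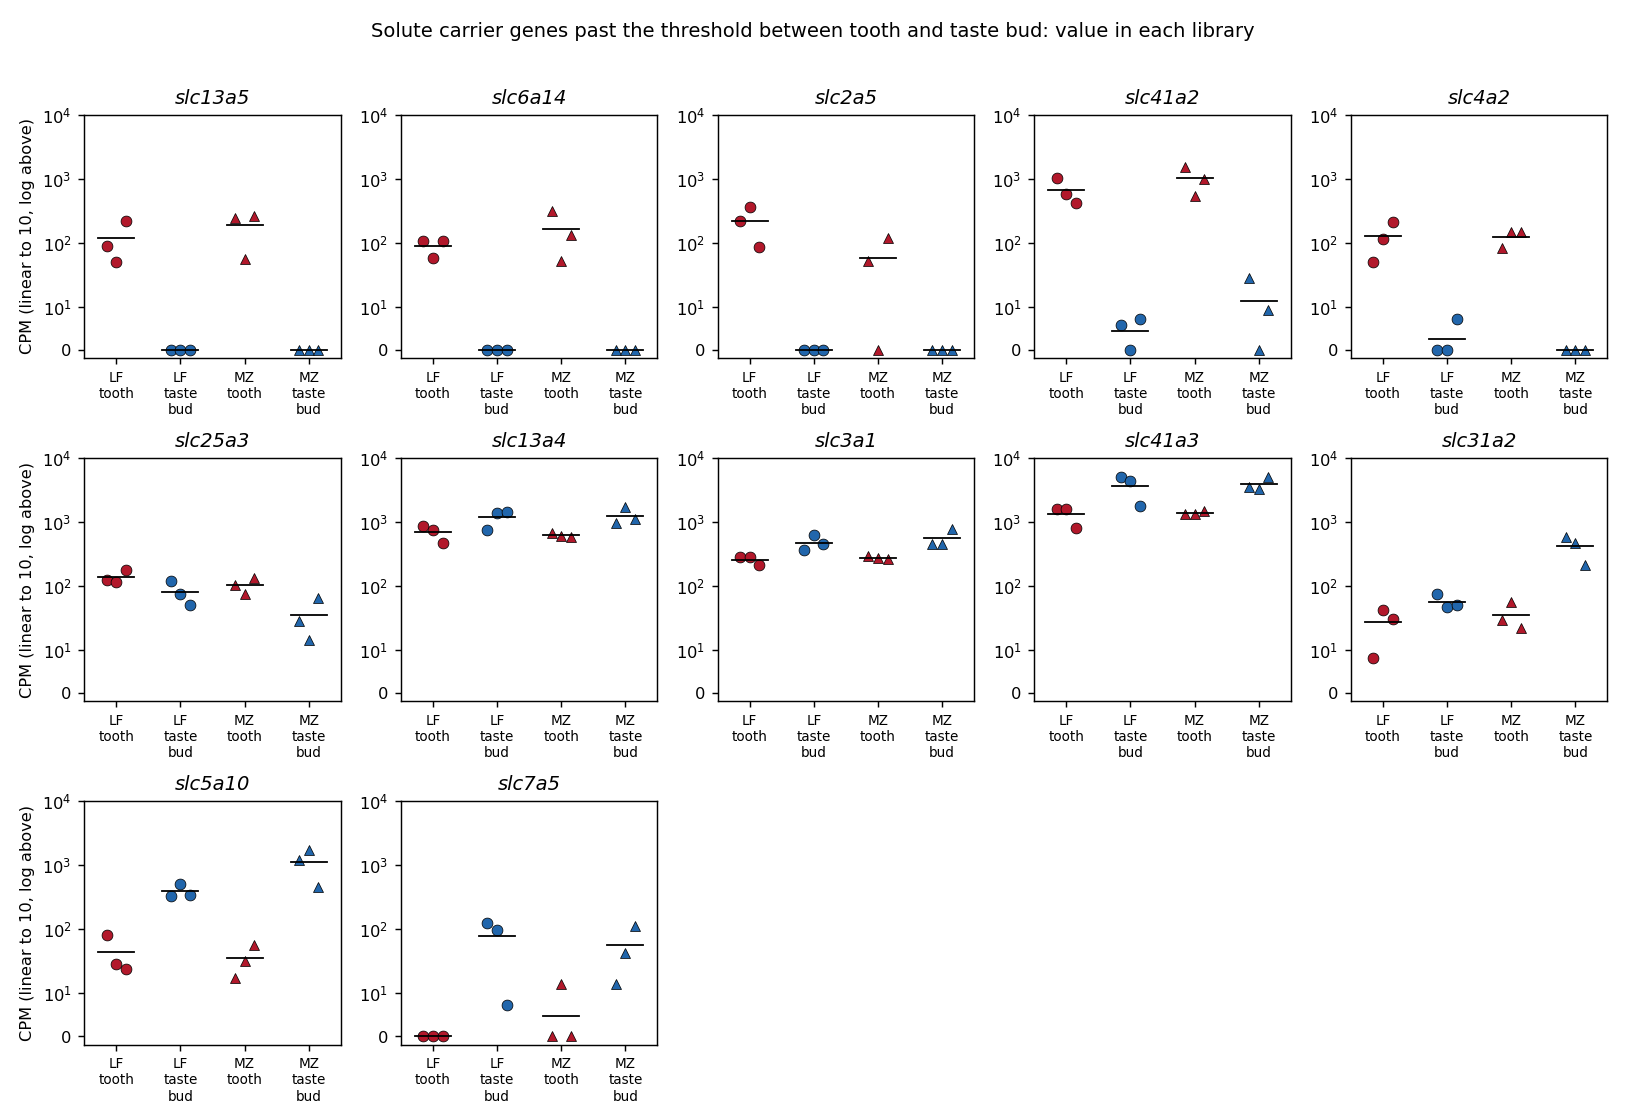
CPM of 12 of the 13 SLC genes that differed between tooth and taste bud, one panel per gene. Points are libraries, lines are group means (n = 3), groups run L. fuelleborni tooth, L. fuelleborni taste bud, M. zebra tooth, M. zebra taste bud, and the axis is linear up to 10 CPM and logarithmic above. The taste bud libraries sit at 0 for slc13a5, slc6a14 and slc2a5, and slc31a2 stands higher in the 3 M. zebra taste bud libraries (213 to 573 CPM) than in all other libraries.

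Acid and base transport was the first class examined. The anion exchanger gene slc4a2, whose protein swaps bicarbonate for chloride and is found in mammalian ameloblasts and osteoclasts, was higher in tooth. Its CPM was 49.3, 114 and 214 in L. fuelleborni tooth and 81.7, 149 and 145 in M. zebra tooth. Taste bud libraries gave 0, 0 and 7.18 in L. fuelleborni and 0 in all 3 M. zebra libraries. The lowest tooth library thus stood above every taste bud library, and the counts summed to 172 in tooth and 1 in taste bud. The ratio was 110.3 with a 95% counting interval of 19.5 to 4383 (log2FC 6.49, SE 0.86, adjusted p = 8.66e-07). Such intervals, here and below, pool the libraries of a tissue and leave out the spread between libraries.

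The other tested anion genes did not pass. The prestin gene slc26a5, known as the motor protein of mammalian hair cells and as an anion carrier in other vertebrates, averaged 271 ± 83.2 CPM over tooth libraries and 276 ± 150.0 in taste bud (SD, n = 6; adjusted p = 0.9997). Tooth and taste bud overlapped in both species. The kanadaptin gene slc4a1ap matches the name rule but encodes no transporter, and its log2FC was 0.94 (SE 0.57, adjusted p = 0.166).

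The scaled library sizes summed to 1.56 times as much in tooth as in taste bud, so that a gene of equal level would have 1.56 tooth counts for each taste bud count. Family 12 holds cation/chloride cotransporters, and its genes were too low for the test. The sodium-potassium-chloride cotransporter slc12a2 had 42 tooth counts and 4 taste bud counts, and the potassium-chloride cotransporter slc12a4 had 62 and 4. For slc12a9 the tooth libraries held 27 counts and the taste bud libraries 4, and for slc12a3, under the limit of 15 counts, they held 5 and 8. The sulfate transporter slc26a2, which supplies sulfate for cartilage proteoglycans in mammals, had 48 in tooth and 5 in taste bud. Of the 48, 43 were from M. zebra, and L. fuelleborni had 5 in tooth and 4 in taste bud. The red cell anion exchanger gene slc4a1 had 21 tooth counts and 14 taste bud counts, with a ratio of 0.962 (0.467 to 2.05). In the same libraries the erythrocyte markers alas2, epb41 and rhag summed to 42 tooth counts and 1 taste bud count. Of the tooth counts, 36 were of epb41, 3 of alas2 and 3 of rhag.

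Low-count exchangers of protons and calcium gave 58 tooth counts and 12 taste bud counts for slc9a7 and 14 and 10 for slc9a8, both of which act in the Golgi apparatus and endosomes. The potassium-dependent sodium/calcium exchanger slc24a3 had 31 in tooth and 7 in taste bud. The mitochondrial sodium/calcium exchanger slc8b1 had 18 in tooth and 6 in taste bud. The counting intervals of slc9a8 (0.371 to 2.26) and slc8b1 (0.732 to 5.92) included a ratio of 1.

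Genes outside the SLC names that work with these carriers were counted beside them. The list held the carbonic anhydrases, which make bicarbonate and protons, and the sodium, calcium and proton pumps, 28 genes in all, of which ca10 had 0 counts. Of 6 tested, edgeR called 3 in favour of tooth and 0 in favour of taste bud at an adjusted p under 0.05. At this threshold 32.6% of all genes tested were called in favour of tooth and 20.2% in favour of taste bud. The list gave the same 3 and 0 at an unadjusted p under 0.05, which 1722 of all 2962 genes reached in either direction. The membrane-bound ca12 had 1129 tooth counts and 1 taste bud count. For ca6, a secreted carbonic anhydrase, tooth libraries held 566 counts and taste bud libraries 8 (log2FC 5.42, SE 0.58, adjusted p = 1.82e-08). The proton pump subunit atp6v0a1 had 73 tooth counts and 6 taste bud counts (log2FC 3.13, SE 0.72, adjusted p = 6.11e-04). The carbonic anhydrase ca7, too low for the test, had 62 in tooth, at least 13.3-fold higher than the 0 in taste bud, while ca5a had 16 in tooth and 46 in taste bud.

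Osteoclasts, which resorb bone and are rich in proton pumps and slc4a2 in mammals, can be present around a jaw tooth. Their 4 markers in the table summed to 166 tooth counts and 3 taste bud counts. Tooth counts were 108 for itgb3, 34 for tnfrsf11a, 23 for csf1r and 1 for ocstamp. Summed CPM was 41.1 to 235 in L. fuelleborni tooth and 83.5 to 187 in M. zebra tooth, against 0 to 14.4 in taste bud of L. fuelleborni and 0 in taste bud of M. zebra, and none of the 4 was at 0 in tooth. The ionocyte markers summed to 61 tooth counts and 3 taste bud counts. Of these, foxi3 held 60 in tooth and 3 in taste bud, rhcg 1 and 0, and gcm2 had 0 in all libraries, so this list rested on foxi3 alone. The part of osteoclasts and ionocytes in the acid and base results was not tested.

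The family 13 genes slc13a5 and slc13a4 went opposite ways. The citrate transporter gene slc13a5, which brings citrate into cells with sodium, had CPM of 90.3, 50.1 and 217 in L. fuelleborni tooth and 245, 55.7 and 264 in M. zebra tooth. In all 6 taste bud libraries it had 0 counts. The gene was seen in every tooth library, with 204 counts in all, so that it was at least 43.6-fold higher in tooth (log2FC 7.66, SE 0.99, adjusted p = 8.61e-07). A count of 0 was set to 3 counts over the tissue for such lower bounds, which cover counting error only. Citrate is a known component of the mineral of bone and tooth, and slc13a5 loss in humans is linked to defective enamel.

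The sulfate transporter gene slc13a4 was higher in taste bud. Its CPM was 879, 751 and 462 in L. fuelleborni tooth and 671, 613 and 589 in M. zebra tooth. The taste bud values were 737, 1380.1 and 1422 in L. fuelleborni and 951, 1705 and 1112 in M. zebra. The groups were apart in M. zebra and overlapped in L. fuelleborni, where taste bud replicate 1 fell below 2 tooth libraries (log2FC -0.89, SE 0.32, adjusted p = 0.0219). The call ended in 4 of 12 leave-one-out fits, those without L. fuelleborni taste bud replicate 2 (adjusted p = 0.0540), M. zebra tooth replicate 1 (0.0568), M. zebra tooth replicate 3 (0.0836) or M. zebra taste bud replicate 2 (0.0508), with DESeq2's size factors (0.0741) and without a filter on low counts (0.108).

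Sugar carriers also moved in opposite directions. The fructose transporter gene slc2a5 (GLUT5) had CPM of 222, 358 and 84.5 in L. fuelleborni tooth and 52.5, 0 and 119 in M. zebra tooth, and 0 counts in all 6 taste bud libraries. M. zebra tooth replicate 1 was the tooth library with no count, so that tooth and taste bud touched at 0 in M. zebra. With 141 counts in tooth it was at least 30.1-fold higher there (log2FC 7.22, SE 1.19, adjusted p = 2.10e-05).

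The sodium-coupled sugar transporter gene slc5a10 (SGLT5), which takes up mannose and fructose in the mammalian kidney, was higher in taste bud. Its CPM was 82.1, 28.6 and 24.1 in L. fuelleborni tooth and 17.5, 32.5 and 57.1 in M. zebra tooth. In taste bud it was 326, 506 and 338 in L. fuelleborni and 1203, 1705 and 454 in M. zebra. Every taste bud library exceeded every tooth library, and summed counts of 45 in tooth and 464 in taste bud gave a 16.1-fold difference in favour of taste bud (log2FC -4.05, SE 0.45, adjusted p = 3.19e-08). The glucose transporter gene slc2a12 did not pass, with means of 443 ± 147 CPM in tooth libraries and 509 ± 94.4 in taste bud libraries (SD, n = 6; log2FC -0.21, SE 0.33, adjusted p = 0.622).

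Of the lower-count sugar genes, slc2a8, an intracellular glucose transporter, had 80 tooth counts and 4 taste bud counts. M. zebra tooth replicate 0 held 39 of the 80. The gene slc5a5, which belongs to a sugar family by number but encodes the sodium/iodide symporter of the thyroid, had 29 tooth counts and 59 taste bud counts. The counts of slc5a11, a myo-inositol transporter, were 43 in tooth and 32 in taste bud. For the kidney glucose transporter slc5a2 they were 29 and 7, with 20 of the 29 in L. fuelleborni tooth replicate 0. In this replicate slc6a3, the dopamine transporter, also had 11 of its 16 tooth counts.

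The remaining sugar genes had few counts. These were 14 in tooth and 9 in taste bud for slc2a10, 18 and 8 for slc45a4, and 14 and 3 for the sugar exporter slc50a1. The gene slc2a4rg, which regulates slc2a4 and is no transporter, had 28 in tooth and 15 in taste bud. The counting intervals of all 4 ratios included 1.

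Among amino acid carriers, slc6a14, which takes up neutral and basic amino acids with sodium and chloride, was higher in tooth. Its CPM was 107, 57.2 and 106 in L. fuelleborni tooth and 309, 51.1 and 132 in M. zebra tooth. It had 0 counts in all 6 taste bud libraries, against 150 in tooth, at least 32.1-fold higher (log2FC 7.33, SE 0.98, adjusted p = 1.44e-06). M. zebra tooth replicate 0 was the highest library, as it was for slc41a2.

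The large neutral amino acid transporter gene slc7a5 (LAT1) went the other way. Its CPM was 0 in all 3 L. fuelleborni tooth libraries and 0, 13.9 and 0 in M. zebra tooth. Taste bud libraries gave 126, 99.3 and 7.18 in L. fuelleborni and 14, 43.3 and 111 in M. zebra. They were uneven within each species, and the lowest of M. zebra stood level with M. zebra tooth replicate 1. The tooth libraries held 3 counts and the taste bud libraries 60. The ratio of taste bud over tooth was 31.2 with a 95% interval of 10.2 to 155 (log2FC -5.07, SE 0.96, adjusted p = 8.08e-05). The call ended when the 3 libraries richest in ribosomal protein counts were left out (log2FC -3.32, SE 1.80, adjusted p = 0.143). That fit keeps 1 L. fuelleborni taste bud library, whose spread is assumed to be like that of the other groups.

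LAT1 works in a pair with the heavy chain that slc3a2 encodes (CD98). The heavy chain gene did not pass, with 52 tooth counts and 46 taste bud counts (log2FC 0.05, SE 0.51, adjusted p = 0.949). Its libraries went apart by species. CPM was 0, 14.3 and 75.4 in L. fuelleborni tooth and 35, 51.1 and 35.2 in M. zebra tooth, against 91.4, 70.9 and 79.0 in taste bud of L. fuelleborni and 28, 14.4 and 9.27 in taste bud of M. zebra. The taste bud libraries of L. fuelleborni thus lay above those of M. zebra, without passing the threshold (log2FC 2.24, SE 0.94, adjusted p = 0.184). The log2FC of tooth over taste bud was -1.16 (SE 0.73, adjusted p = 0.219) in L. fuelleborni and 1.27 (SE 0.97, adjusted p = 0.312) in M. zebra. In L. fuelleborni the gene was called higher in taste bud by limma-voom, with and without a random replicate block, and by edgeR without tooth replicate 4. The difference of the tissue difference between species was -2.43 on the log2 scale (SE 1.21, adjusted p = 0.636).

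The other heavy chain gene, slc3a1, whose protein serves cystine and basic amino acid uptake in the kidney, was higher in taste bud. CPM was 287, 279 and 211 in L. fuelleborni tooth and 298, 269 and 259 in M. zebra tooth. Taste bud CPM was 360.0, 624 and 445 in L. fuelleborni and 447, 448 and 769 in M. zebra. All taste bud libraries lay above all tooth libraries by a small margin, 2.01-fold in summed counts (log2FC -0.95, SE 0.33, adjusted p = 0.0153). The call ended without L. fuelleborni taste bud replicate 2 (adjusted p = 0.0544), M. zebra tooth replicate 3 (0.0658) or M. zebra taste bud replicate 3 (0.0550), with DESeq2's size factors (0.0515) and without a filter on low counts (0.0940).

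For the glutamate transporter slc1a3 the log2FC was 0.50 (SE 0.56, adjusted p = 0.476), with L. fuelleborni tooth at 57.5 to 93.0 CPM above L. fuelleborni taste bud at 14.2 to 45.7. The lysosomal glutamine carrier gene slc38a7 gave -0.45 (SE 0.61, adjusted p = 0.561) and its relative slc38a10 gave -0.21 (SE 0.44, adjusted p = 0.716). None of the 3 passed, and in M. zebra tooth and taste bud overlapped for each.

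The taurine transporter slc6a6 and the creatine transporter slc6a8 had more counts in tooth among the low-count genes. Counts were 40 in tooth and 1 in taste bud for slc6a6, a ratio of 25.7 (4.35 to 1038), and 36 and 7 for slc6a8. The neutral amino acid carriers slc6a15 and slc43a1 had 37 in tooth and 12 in taste bud, and 35 and 16. Of the glutamine carriers, slc38a2 had 43 in tooth and 19 in taste bud, and slc38a5 had 9 and 15. Of these 15, 14 were from L. fuelleborni taste bud, and its replicate 1 held 10.

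Few counts fell on the rest of this class. They came to 12 tooth counts and 8 taste bud counts for slc1a4, and 16 and 3 for slc6a3. The cystine/glutamate exchanger slc7a11 had 6 in tooth and 10 in taste bud. The gene slc7a6os, which lies opposite slc7a6 and encodes no transporter, had 36 in tooth and 23 in taste bud (ratio 1.00, interval 0.579 to 1.77).

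The magnesium carrier genes slc41a2 and slc41a3 also went opposite ways. The gene slc41a2 was higher in tooth, at 1018, 579 and 413 CPM in L. fuelleborni tooth and 1499.9, 538 and 998 in M. zebra tooth. In taste bud it was at 5.71, 0 and 7.18 CPM in L. fuelleborni and at 28, 0 and 9.27 in M. zebra. Summed counts of 942 in tooth and 5 in taste bud gave a ratio of 121 with a 95% interval of 51.6 to 373 (log2FC 6.73, SE 0.57, adjusted p = 4.94e-10).

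Its relative slc41a3, which is reported to export magnesium from mitochondria in mammals, was higher in taste bud. CPM was 1577, 1602 and 803 in L. fuelleborni tooth and 1331, 1313 and 1464 in M. zebra tooth. The taste bud values were 4989, 4287 and 1745 in L. fuelleborni and 3482, 3279.7 and 5099 in M. zebra. The 6 taste bud libraries lay above the 6 tooth libraries, with 1526 tooth counts and 3049 taste bud counts (log2FC -1.50, SE 0.34, adjusted p = 4.75e-04). With the 3 libraries of high ribosomal protein share left out, the log2FC was -0.88 (adjusted p = 0.0230). Without slc41a3, the remaining SLC genes held 0.659% to 0.915% of the counts of tooth libraries and 0.418% to 0.686% of those of taste bud libraries, and the tissues still overlapped. These are shares of all counts, with those of LOC105941146 included (0.0596% to 0.778% in tooth and 11.9% to 26.4% in taste bud). That feature lowers the taste bud shares more than the tooth shares.

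The copper transporter gene slc31a2 (CTR2), which acts on copper in endosomes, was higher in taste bud. CPM was 8.21, 42.9 and 30.2 in L. fuelleborni tooth and 29.2, 55.7 and 22 in M. zebra tooth. Taste bud libraries gave 74.3, 47.3 and 50.3 in L. fuelleborni and 573, 477 and 213 in M. zebra. The log2FC was -2.27 (SE 0.46, adjusted p = 1.41e-04), and the M. zebra taste bud libraries held 97 of the 127 taste bud counts. The plasma membrane copper importer slc31a1 was too low for the test, with 39 tooth counts and 9 taste bud counts.

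Zinc carriers fall in an exporter family (30) and an importer family (39). The exporter gene slc30a4 did not pass, with means of 186 ± 30.3 CPM in tooth libraries and 204 ± 105 in taste bud libraries (SD, n = 6), with a log2FC of -0.11 (SE 0.37, adjusted p = 0.831) that became 0.10 with DESeq2's size factors. Exporters of the Golgi apparatus had 42 tooth counts and 20 taste bud counts for slc30a5 and 65 and 18 for slc30a7, and slc30a9 had 17 in tooth and 3 in taste bud. The ratio of slc30a7 was 2.32 (1.36 to 4.15), whereas the interval of slc30a5 (0.773 to 2.42) included 1.

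Of the zinc importers, slc39a4, the intestinal importer, had 25 tooth counts and 0 taste bud counts and was at least 5.35-fold higher in tooth. The gene slc39a13, whose loss in humans gives a connective tissue disorder with tooth defects, had 30 in tooth and 2 in taste bud (ratio 9.62, interval 2.44 to 83.1). Counts were 40 in tooth and 6 in taste bud for slc39a9. They were 13 and 14 for slc39a1 and 11 and 14 for slc39a6, with intervals that included 1.

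**Figure D2:**
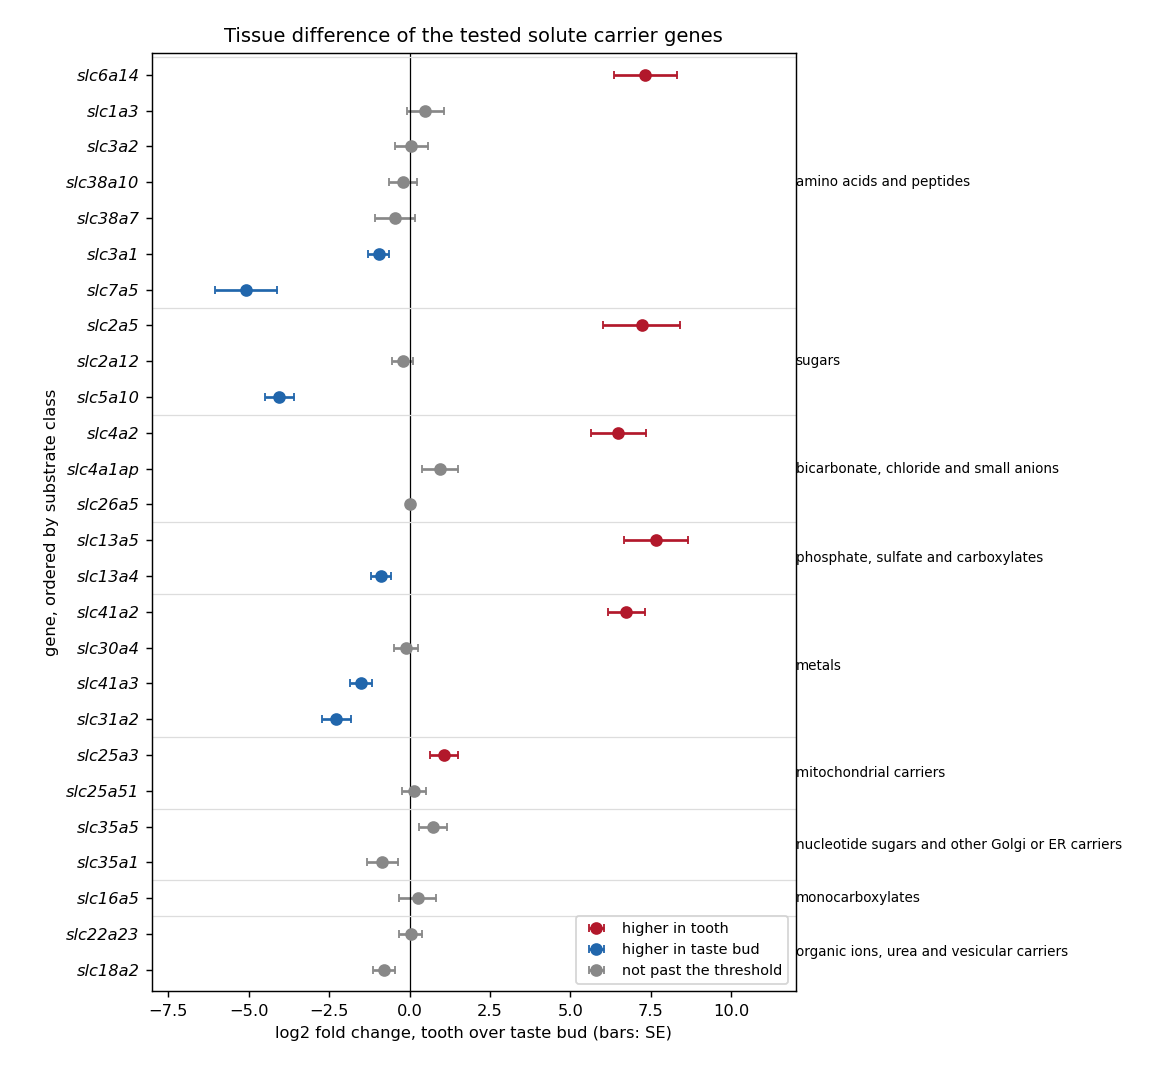
Log2FC of tooth over taste bud (mean of both species) for 26 of the 27 tested SLC genes, grouped by substrate class, with bars for 1 SE and no bar for slc26a5. Genes to the right of 0 had the higher level in tooth. Red points (higher in tooth) and blue points (higher in taste bud) passed an adjusted p under 0.05, and grey points did not. The 5 genes drawn with a log2FC above 4 (slc13a5, slc6a14, slc2a5, slc41a2 and slc4a2) each belong to another class, and slc30a4 changes sign with DESeq2's size factors.

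Of the mitochondrial carriers of family 25, 2 were tested and 1 was called. The phosphate carrier gene slc25a3, which supplies phosphate for ATP synthesis, had CPM of 123, 114 and 175 in L. fuelleborni tooth and 105, 74.3 and 132 in M. zebra tooth. The taste bud values were 120.0, 75.6 and 50.3 in L. fuelleborni and 28, 14.4 and 64.9 in M. zebra. The groups overlapped in L. fuelleborni and were apart in M. zebra, and the gene was higher in tooth (log2FC 1.09, SE 0.44, adjusted p = 0.0381). The call ended in 7 of 12 leave-one-out fits, with adjusted p from 0.0589 to 0.129 (M. zebra tooth replicates 0 and 3, M. zebra taste bud replicates 1 and 2, L. fuelleborni taste bud replicates 2 and 4, and L. fuelleborni tooth replicate 4). It also ended in the fit of all genes with 15 or more counts (0.106), without a filter (0.118) and when the 3 libraries of high ribosomal protein share were left out (0.0666).

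The mitochondrial NAD carrier slc25a51 did not pass, with means of 213 ± 102 CPM in tooth libraries and 185 ± 58.2 in taste bud libraries (SD, n = 6; log2FC 0.15, SE 0.38, adjusted p = 0.768). The ADP/ATP carrier gene slc25a4 had 0 counts in all libraries. Of the 9 lower genes of this family, the oxoglutarate carrier slc25a11 had 55 tooth counts and 11 taste bud counts, with a ratio of 3.21 (1.66 to 6.80). The orphan carrier slc25a34 had 21 in tooth and 2 in taste bud.

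For the pyrimidine nucleotide carrier slc25a36 the counts were 34 in tooth and 11 in taste bud. The iron carrier slc25a28 had 25 in tooth and 14 in taste bud. Counts were 19 in tooth and 9 in taste bud for slc25a32, 13 and 6 for slc25a29, 13 and 4 for slc25a45 and 12 and 7 for slc25a46. The intervals of these 6 ratios all included 1.

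Carriers of the Golgi apparatus and endoplasmic reticulum supply nucleotide sugars for glycosylation, and neither tested gene passed. The CMP-sialic acid carrier slc35a1 had 55 tooth counts and 72 taste bud counts (log2FC -0.84, SE 0.48, adjusted p = 0.140). For slc35a5 the log2FC was 0.72 (SE 0.44, adjusted p = 0.170), with 608, 300.4 and 416 CPM in L. fuelleborni tooth and 280.1 to 292 in M. zebra tooth, against 62.9 to 316 in taste bud of L. fuelleborni and 92.7 to 650.2 in taste bud of M. zebra. The spread of slc35a5 was wide in taste bud, and limma-voom and 2 leave-one-out fits did call it.

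Of the low-count genes here, slc35g1 had 31 tooth counts and 3 taste bud counts, slc35f3 had 18 and 2, slc35b1 had 24 and 3 and slc35e1 had 41 and 9. The acetyl-CoA carrier slc33a1 had 21 in tooth and 5 in taste bud. Lower in tooth than in taste bud by count were the UDP-galactose carrier slc35a2, with 18 and 26, and slc35d2, with 6 and 10. Counts were 16 in tooth and 10 in taste bud for slc35e2b and 10 and 10 for slc35e4. Only the interval of slc35a2 (0.229 to 0.842) excluded 1 among these last 4 genes.

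Of the monocarboxylate carriers, slc16a5 was tested and did not pass (log2FC 0.25, SE 0.59, adjusted p = 0.748), with 60 tooth counts and 40 taste bud counts. Low-count members went both ways. The creatine transporter slc16a12 had 1 count in tooth and 14 in taste bud, and slc16a6 had 16 in tooth and 55 in taste bud. The aromatic amino acid and thyroid hormone carrier slc16a10 had 17 in tooth and 2 in taste bud.

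Vesicular and organic ion carriers were compared because taste cells store transmitters in vesicles. The vesicular monoamine transporter slc18a2 (VMAT2) did not pass (log2FC -0.80, SE 0.35, adjusted p = 0.0567). Its CPM was 229 to 322 in L. fuelleborni tooth and 233 to 302 in M. zebra tooth, against 251 to 652 in taste bud of L. fuelleborni and 294 to 760.2 in taste bud of M. zebra, so that the tissues overlapped. It was called with the ribosomal protein share as a covariate (adjusted p = 0.0307) and in 4 of 12 leave-one-out fits. These were the fits without L. fuelleborni taste bud replicate 1 (0.0458) or 4 (0.0210) and without M. zebra taste bud replicate 1 (0.0278) or 2 (0.0470). The orphan carrier slc22a23 had 465 tooth counts and 308 taste bud counts (log2FC 0.03, SE 0.35, adjusted p = 0.949).

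The vesicular glutamate transporter slc17a6 had 15 tooth counts and 54 taste bud counts, of which 48 were from L. fuelleborni taste bud. Scaled to library size, its mean was 87.3 CPM in L. fuelleborni taste bud and 23.6 CPM in M. zebra taste bud. The vesicular nucleotide transporter slc17a9 had 22 in tooth and 2 in taste bud. The lysosomal sialic acid exporter slc17a5 had 16 tooth counts and 0 taste bud counts and was at least 3.42-fold higher in tooth. In the same tissues ddc, the enzyme that makes serotonin and dopamine, had 5 tooth counts and 80 taste bud counts. Of the organic ion carriers, the carnitine transporter slc22a16 had 18 in tooth and 32 in taste bud, slc22a15 had 17 and 5, and slc22a17 had 14 and 13.

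The nucleoside carrier slc29a1 (ENT1) had 26 tooth counts and 1 taste bud count, with a ratio of 16.7 (2.74 to 684). For lipids and choline, slc44a5 had 16 tooth counts and 0 taste bud counts and was at least 3.42-fold higher in tooth, and slc44a1, a choline transporter, had 15 and 8. The fatty acid transporter slc27a4, needed for the skin barrier in mice, had 23 in tooth and 30 in taste bud (ratio 0.492, interval 0.273 to 0.876), and slc10a7 had 14 and 5. The edgeR fit of all features with 15 or more counts did not call slc27a4 (log2FC -0.85, SE 0.65, adjusted p = 0.322). The vitamin and haem class held slc46a2, with 22 tooth counts and 0 taste bud counts (at least 4.70-fold higher in tooth, 20 of the counts from M. zebra), and the lysosomal haem transporter slc48a1, with 15 and 4.

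Over the 71 low-count SLC genes as a whole, 51 (71.8%) had a higher scaled count in tooth, against 69.8% of the 7798 features with 15 or more counts that the filter removed. Those with 0 counts in taste bud were slc39a4, slc46a2, slc17a5 and slc44a5 (5.63%, against 6.19%), and 0 of the 71 had no count in tooth. These shares lay near those of all such features.

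A fit of all 10760 features with 15 or more counts called 32 of the 98 SLC genes, 21 in favour of tooth and 11 in favour of taste bud, against 32.9% of all features in either direction, 23.2% in favour of tooth and 9.71% in favour of taste bud. Of the 71 low-count genes it called 20. The share called among all features of low count is not given here, so these 20 cannot be set against it. In tooth 15 were higher, namely slc12a2, slc12a4, slc2a8, slc6a6, slc17a5, slc17a9, slc25a11, slc25a34, slc29a1, slc35f3, slc35g1, slc39a4, slc39a13, slc44a5 and slc46a2. In taste bud 5 were higher, namely slc5a5, slc16a6, slc16a12, slc17a6 and slc22a16. Among those with the lowest adjusted p-values were slc2a8 (log2FC 3.38, SE 0.76, adjusted p = 9.18e-05), slc12a4 (4.21, SE 0.96, adjusted p = 1.10e-04) and slc16a6 (-2.30, SE 0.60, adjusted p = 8.07e-04).

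**Figure D3:**
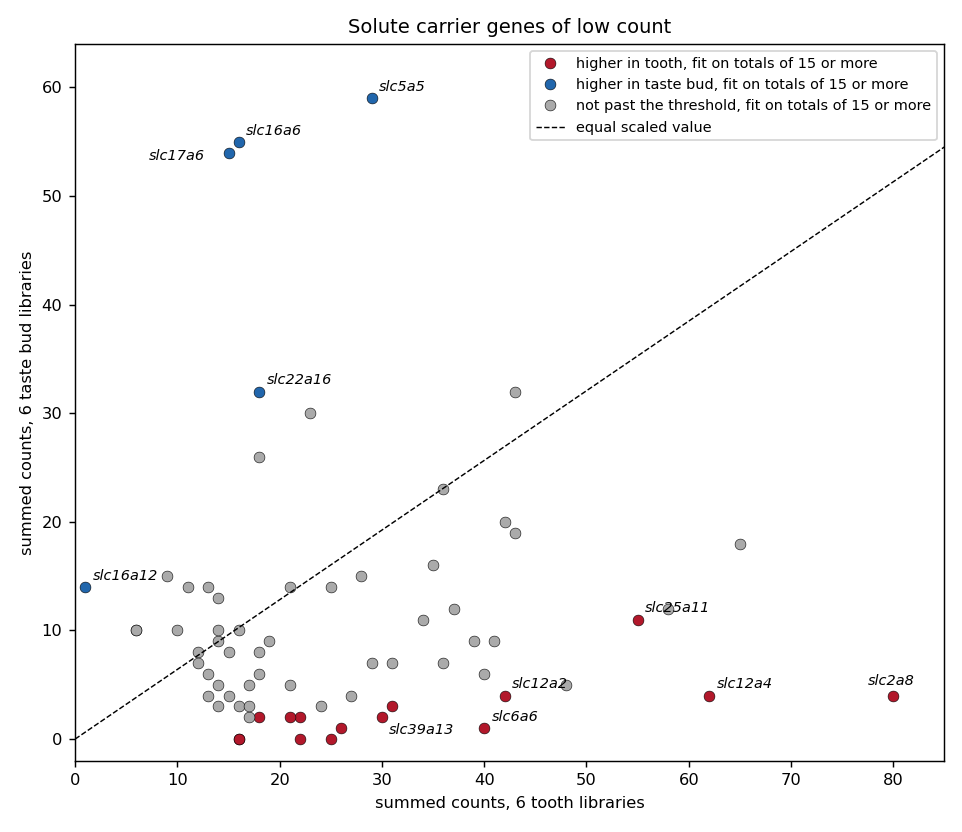
Summed counts in tooth and in taste bud for 69 of the 71 SLC genes with 15 or more counts that were too low for the main test. The dashed line marks equal scaled values, and colour marks genes called higher in tooth (15), called higher in taste bud (5) or not called in the fit of all features with 15 or more counts. Most points (50) lie on the tooth side of the line, with slc2a8 at 80 and 4 counts.

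The tissue difference was then taken within each species. In L. fuelleborni 9 of the 27 SLC genes passed, 33.3%, against 38.6% of all genes. Of these, 6 were higher in tooth (24.6% of all genes) and 3 in taste bud (13.9%). In M. zebra 10 passed (37%, against 42.6%), 6 higher in tooth and 4 in taste bud, against 26.9% and 15.7% of all genes. The same 9 genes passed in both species with the same direction (33.3%, against 30.4% of all genes). Higher in tooth were slc2a5, slc4a2, slc6a14, slc13a5 and slc41a2 among others, and higher in taste bud were slc5a10, slc7a5 and slc41a3. In M. zebra slc31a2 passed as well (log2FC -3.52, SE 0.64, adjusted p = 9.60e-05), for which L. fuelleborni gave -1.02 (SE 0.67, adjusted p = 0.239).

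Some calls within a species ended with libraries left out or with another fit. For slc41a3 the call in L. fuelleborni ended without taste bud replicate 1 (adjusted p = 0.0628) or 2 (0.0555), and with both of these and tooth replicate 4 left out its log2FC there was -0.23 (0.777). A fit on the 2 L. fuelleborni groups alone also ended it (0.0832). The L. fuelleborni calls of slc4a2 (log2FC 3.28, adjusted p = 0.0811) and slc7a5 (log2FC -3.27, adjusted p = 0.445) ended too with those 3 libraries left out. The slc41a3 call in M. zebra ended without tooth replicate 1 (0.0512), tooth replicate 3 (0.0569) or taste bud replicate 3 (0.0573), and without a filter on low counts (0.0756). In M. zebra slc7a5 missed the threshold without tooth replicate 0 (0.0721), tooth replicate 3 (0.106) or taste bud replicate 3 (0.218), and slc2a5 missed it without tooth replicate 3 (0.0693) or taste bud replicate 3 (0.0592), with DESeq2 (log2FC 4.84, adjusted p = 0.0862) and with limma-voom (log2FC 2.04, adjusted p = 0.118). Some called genes did not pass the filter in a fit on the groups of 1 species alone and went untested there. These were slc4a2 and slc7a5 in L. fuelleborni, and slc13a5, slc2a5, slc6a14 and slc7a5 in M. zebra. Newly called in such fits were slc1a3 in L. fuelleborni and slc25a3 in M. zebra.

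The weaker calls of the mean comparison, slc3a1, slc13a4 and slc25a3, passed in neither species alone. For slc3a1 the log2FC was -0.89 (SE 0.46) in L. fuelleborni and -1.02 (SE 0.46) in M. zebra. For slc13a4 it was -0.76 (SE 0.45) in L. fuelleborni and -1.01 (SE 0.46) in M. zebra. Over the 27 genes the log2FC of the 2 species correlated with a Pearson coefficient of 0.92 and a Spearman coefficient of 0.76, across genes that share libraries and are no replicates. Over all genes tested these coefficients were 0.88 and 0.85. The 27 genes include slc2a5, slc6a14 and slc13a5, which had 0 counts in the taste bud libraries of both species, and slc4a2, with 0 in those of M. zebra. The size of the log2FC was not measured where taste bud had 0 counts, so the coefficients do not show agreement in size for these genes. The sign was the same in 17 of 27 genes (63.0%), against 79.9% of all genes tested.

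**Figure D4:**
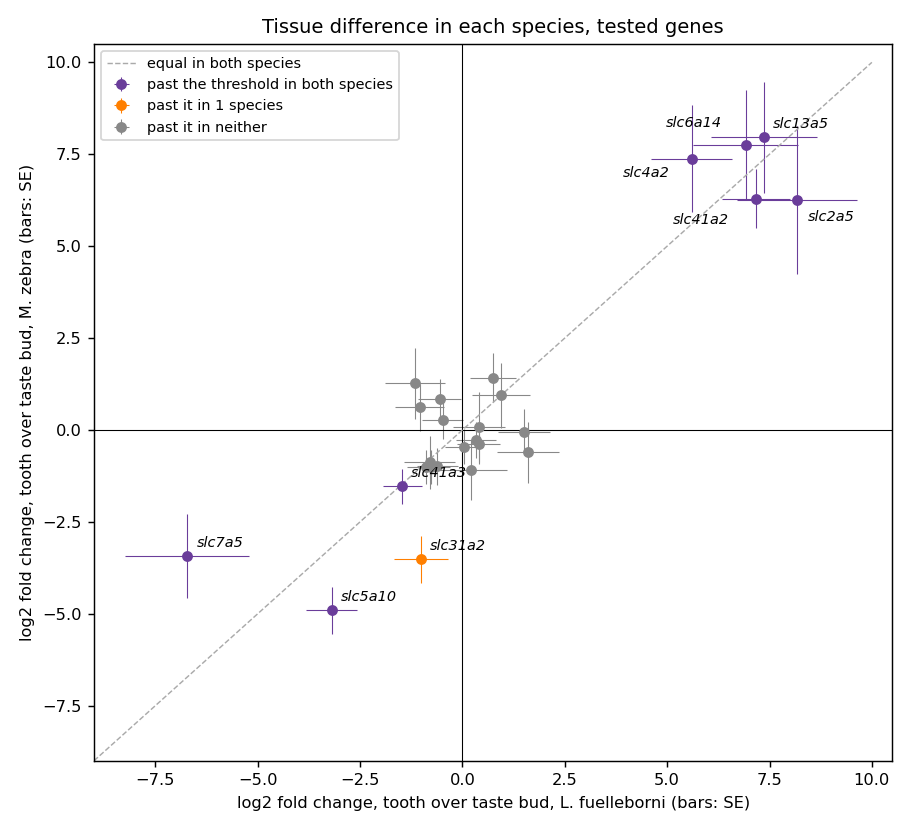
Log2FC of tooth over taste bud in L. fuelleborni (horizontal) and in M. zebra (vertical) for 26 of the 27 tested SLC genes, with bars for 1 SE. The 8 genes drawn that were called in both species lie in the upper right and lower left quadrants. Among them slc41a3 lies near the centre (-1.47 in L. fuelleborni and -1.53 in M. zebra). Called in M. zebra alone, slc31a2 lies farther from 0 there (-3.52) than in L. fuelleborni (-1.02).

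Between species, 0 of 27 SLC genes differed in tooth by edgeR, against 1.52% of all genes. An unadjusted p under 0.05 was found for 2 of them, slc2a5 and slc16a5, and DESeq2 and limma-voom called 0 as well. The monocarboxylate carrier slc16a5 had 115, 136 and 48.3 CPM in L. fuelleborni tooth and 5.84, 18.6 and 26.4 in M. zebra tooth, with no overlap. Its log2FC of L. fuelleborni over M. zebra was 2.42 (SE 0.72, adjusted p = 0.103). It passed without L. fuelleborni taste bud replicate 4 (adjusted p = 0.0493) and with the 3 libraries of high ribosomal protein share left out (0.0356). In the fit of all features with 15 or more counts, slc26a2 was lower in L. fuelleborni tooth, with 5 counts there and 43 in M. zebra tooth (log2FC -3.24, SE 0.87, adjusted p = 0.0213, against 1.42% of all features called).

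In taste bud 1 of 27 SLC genes differed between species, against 4.29% of all genes. This was slc31a2, at 57.3 ± 14.8 CPM in the L. fuelleborni epithelium and 421 ± 186 in that of M. zebra (SD, n = 3 each; log2FC -2.85, SE 0.61, adjusted p = 0.00577). All 3 L. fuelleborni libraries lay below all 3 M. zebra libraries. With the 3 libraries of high ribosomal protein share left out the gene missed the threshold (log2FC -2.90, adjusted p = 0.0885), as it did with that share as a covariate (-2.96, adjusted p = 0.0876). The sugar carrier slc5a10 stood at 389.7 ± 101 CPM in the L. fuelleborni epithelium and 1121 ± 629 in that of M. zebra (log2FC -1.51, SE 0.54, adjusted p = 0.118) and did not pass. As in tooth, slc16a5 was higher in L. fuelleborni without overlap, at 62.9, 37.8 and 122 CPM, against 28, 14.4 and 9.27 in M. zebra. It did not pass (log2FC 2.10, SE 0.86, adjusted p = 0.173). By edgeR, 4 of the 27 genes (slc31a2, slc5a10, slc16a5 and slc3a2) had an unadjusted p under 0.05, against 552 of all 2962 genes. Among the 27 genes, slc2a5, slc6a14 and slc13a5 had 0 counts in all taste bud libraries and could not be called here.

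The tissue difference itself differed between species for 0 of 27 SLC genes by edgeR, against 0.00% of all genes. For slc2a5, slc6a14 and slc13a5, with 0 counts in all taste bud libraries, this difference could not be estimated, so they could not be called. Only slc31a2 of the 27 had an unadjusted p under 0.05 (difference of log2FC 2.50, SE 0.92, adjusted p = 0.516), and DESeq2 and limma-voom called 0 SLC genes. Over all genes 228 had an unadjusted p under 0.05, and DESeq2 called 9 and limma-voom 1.

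Members just inside the limit of 15 counts were slc16a12 with 15 and slc7a11, slc17a5, slc35d2 and slc44a5 with 16. Just outside it were slc25a33 and slc37a3, among others, with 14 and slc1a5, slc12a3, slc24a4 and slc45a3 with 13. SLC genes reached 15 counts in 44.1% of cases, against 56.3% of all named features, and passed the filter in 12.2% of cases, against 15%. With 0 counts were 12.2% of SLC genes, against 8.17% of named features. At these depths a gene without counts cannot be called absent.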

How the data were processed

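RNA of replacement teeth and taste bud epithelium went through a stranded mRNA kit and Illumina sequencing, per the labels' protocols. The authors deposited raw read counts per gene feature, without normalization. Per the submitters' processing notes the tools included HTSeq 0.6.1 and edgeR 3.6.8, besides TopHat2 2.0.9, limma 3.20.9 and SAMtools 0.19, with no role given. Not given in the sources used here were build, annotation and use of strand.

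Counts were analysed in R 4.3.3 with edgeR 4.0.16: filterByExpr on the 4 groups (minimum count 10, minimum total 15), TMM, and a quasi-likelihood fit of 4 group means to all 12 libraries, with 6 contrasts. P-values are two-sided and Benjamini-Hochberg adjusted over all genes. SE was taken as the absolute log2FC over the root of F. CPM used TMM sizes, and ratios used summed counts over summed sizes. Intervals are exact 95% binomial on these sums, so that they cover counting error only and not the spread between libraries. The reads carry no molecular identifiers. Replicate pairs had a chi-square per degree of freedom of 2.81 to 17.6, so no library was counted as a repeat. Total counts of 72226 to 300663 limit precision for low genes.

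Called SLC genes were named in full, other tested ones with log2FC and p, and lower ones with summed counts. Counts cover all SLC genes, and values of some are not reported here. The genes, families and lists were chosen with earlier results of these data known. The tests were checked on simulated counts. Alternatives were other scalings and filters, DESeq2 1.42.0, limma-voom (limma 3.58.1), replicate blocks, left-out libraries and the ribosomal share.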

Additional observations from a re-analysis of the deposited data

How the results depend on the processing

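The 13 SLC genes called between tissues kept their direction in all alternatives run. Of their refits, 14 that left out a library and 10 others no longer passed, for slc3a1, slc13a4, slc25a3 and slc7a5 alone. Depth limits the low-count genes. Why settings moved a value was not tested. A filter changes how many features are tested. Without a filter 3327 of 20692 genes were called between tissues. Of 195 SLC genes, 19 were higher in tooth (11.7% of all genes) and 8 in taste bud (4.37%), with slc3a1, slc13a4 and slc25a3 lost. With 15 or more counts 3545 of 10760 genes were called. Of 98 SLC genes, 21 were higher in tooth (23.2% of all genes) and 11 in taste bud (9.71%). In L. fuelleborni these fits gave 1881 and 2238 genes (15 and 18 SLC genes), and in M. zebra 1782 genes (16 SLC genes) with 15 or more counts. They gave 124 and 153 genes between species in tooth (1 SLC gene each), 229 and 264 in taste bud, and 2 and 2 for the difference of the tissue difference, which was 9 with DESeq2 and 1 with limma-voom. Leaving out the libraries of high ribosomal protein share gave 744 genes in L. fuelleborni, 1 SLC gene between species in tooth and 0 in taste bud, and 18 genes for the difference of differences. With that share as a covariate, 43 genes and 0 SLC genes differed between species in taste bud, and a fit on the compared groups alone gave 81 genes there. Leaving out single libraries gave 5 to 10 SLC genes higher in taste bud, against 16.7% to 22% of all genes. It gave 27 to 91 genes (0 to 1 SLC genes) between species in tooth, 64 to 230 in taste bud and 0 to 1 for the difference of differences.

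Same-numbered libraries of a species had correlated deviations of -0.0075, 0.052 and 0.24, so the numbers were not taken as pairs. With the replicate number as a fixed block in edgeR 1192 of 2962 genes were called between tissues. Of 27 SLC genes, 6 were higher in tooth, against 25.96% of all genes, and 5 in taste bud, against 14.28% (slc13a4 and slc25a3 missed). The M. zebra call of slc7a5 ended (adjusted p = 0.0756). With a random block (consensus correlation 0.095, limma-voom) 1605 genes were called between tissues. Of 27 SLC genes, 8 were higher in tooth, against 33.52% of all genes, and 6 in taste bud, against 20.66%. For the difference of differences 1 gene was called. The fixed block turned the log2FC of uncalled genes to -0.20 for slc26a5, -0.036 for slc22a23, -0.14 for slc16a5 and -0.082 for slc1a3. The random block turned it to 0.035 for slc38a7, -0.017 for slc26a5, -0.033 for slc22a23, -0.67 for slc3a2 and -0.016 for slc16a5.

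Other turns of sign were of uncalled genes too. With limma-voom the log2FC was 0.016 for slc38a7, -0.020 for slc22a23 and -0.71 for slc3a2. With DESeq2's size factors it was 0.096 for slc30a4, and 0.096 with DESeq2. With 15 or more counts it was -0.057 for slc26a5, -0.022 for slc22a23 and -0.038 for slc3a2. With the ribosomal covariate it was -0.090 for slc26a5, -0.063 for slc22a23 and -0.12 for slc3a2, and without the 3 libraries 0.49 for slc38a7 and 0.18 for slc2a12. Leaving out 1 library gave ranges across 0 for slc22a23 (-0.11 to 0.23), slc25a51 (-0.20 to 0.27), slc26a5 (-0.25 to 0.21), slc30a4 (-0.29 to 0.13), slc38a10 (-0.58 to 0.037) and slc3a2 (-1.02 to 0.25).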
